A study of Mus musculus with 6 samples.

Results

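The 10 genes described here encode the DNA-binding subunits of AP-1 and companion immediate early factors: Fos, Fosb, Fosl1, Fosl2, Jun, Junb, Jund, Atf3, Egr1 and Ier2. They were matched by mouse gene symbol to the Ensembl identifiers of the count tables, where all 10 were found among 41388 genes, and all 10 passed the filter on low counts that left 12339 genes for testing. The libraries were RNA-seq of KP2 cells, a pancreatic cancer line from a KPC mouse (strain C57BL/6J, fewer than 10 passages after it was made), all grown in DMEM with 10% fetal bovine serum, penicillin and streptomycin. The 3 groups of 2 libraries each were Irak4 knockout cells with rescue (rescue), Irak4 knockout cells (KO) and wild-type cells. The KO was made by infection with plentiCRISPR vectors carrying guide RNAs against Irak4. The labels name no stimulus, no rescue construct and no vector in the wild-type cells, and they do not say whether the KO is 1 clone or a pool. Nor do they say whether replicates were separate cultures, so the variation behind every p-value is that among the libraries and could be purely technical.

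AP-1 is a dimer of basic leucine zipper proteins. JUN proteins pair with each other or with FOS proteins, while FOS proteins need a JUN partner, and ATF3 can pair with JUN proteins. Many of these genes are immediate early genes, which growth factors, serum or stress switch on within minutes through MAP kinases and without new protein synthesis. IRAK4 is the kinase that relays Toll-like and interleukin-1 receptor signals to NF-kB and to MAP kinases.

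The libraries held 7605328 to 11505983 counts. Irak4, the targeted gene, had 492.2 and 211.2 normalised CPM in the rescue libraries, 20.4 and 21.8 in the KO libraries and 37.9 and 37.6 in the wild-type libraries, where normalised CPM is the usual CPM recomputed on library sizes scaled by TMM. Its KO level lay below wild type without passing the test (log2 fold change -0.84, SE 0.33, edgeR adjusted p = 0.057), its rescue level lay far above both, and the Irak4 counts overlap the neighbouring gene Twf1. A frame-shifting mutation need not lower an mRNA, so the KO level does not check the loss of the protein. The keratin genes Krt8, Krt18 and Krt19 were abundant, as in ductal cells, and 8 ductal and carcinoma markers summed to 4726.8 to 5596.8 normalised CPM in the rescue, 3844.7 to 3942.5 in the KO and 6677.2 to 6990.0 in wild type. Of these 8, Epcam, an epithelial marker, had 1 count over all 6 libraries and Krt7, another keratin gene, had 41. Muc1 averaged 5.26 normalised CPM in the rescue, 8.37 in the KO and 16.1 in wild type. The 7 immune markers summed to 4.04 to 5.2 normalised CPM with Cd3e and Lyz2 at 0, the 4 fibroblast markers to at most 1.86 with Dcn and Lum at 0, and the 5 acinar markers to at most 2.06. The 4 endothelial markers summed to 14.8 to 38 in the rescue, 16 to 30.6 in the KO and 4.63 to 5.37 in wild type, with Pecam1 at 3 counts and Tie1 at 1 count in all. Cdh5 averaged 26.2 normalised CPM in the rescue, 23.2 in the KO and 3.29 in wild type, while Kdr averaged 0.067 in the rescue, 0.099 in the KO and 1.6 in wild type. The part of these marker differences in the results below was not tested. In such bulk libraries, fewer cells that express a gene and less RNA per cell cannot be told apart.

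Per unit of gene length, Junb was the most abundant of the 10 transcripts and Fosb the least. Over all 6 libraries the mean level was 399.8 normalised RPKM (normalised CPM per kilobase of gene length) for Junb, higher than 99.5% of the genes tested, and 1.14 for Fosb, higher than 12.3%. Fos was also low at 1.77 normalised RPKM, which rests on 16 to 59 counts per library. Between them stood Fosl1 at 54.0, Ier2 at 46.6, Jund at 40.8, Fosl2 at 29.8, Jun at 18.9, Egr1 at 13.3 and Atf3 at 6.70 normalised RPKM. Neighbours in this order can trade places between groups: in the KO libraries Jund, at 44.7 and 48.1 normalised RPKM, overlapped Fosl1 at 45.3 and 43.3, and in the wild-type libraries Fosl2, at 42.2 and 36.2, overlapped Jund at 36.0 and 36.5.

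In the KO, 4 FOS family genes, Junb and Ier2 were lower than in wild type, and Jun and Jund were higher. That is 6 of 10 genes called lower and 2 called higher at an edgeR adjusted p under 0.05, where 23.5% of all genes tested were called lower, 23.2% higher and 46.8% in either direction. The count called lower stood above that background, and the count called higher stood near it. The 10 genes were chosen with earlier results of these data known, so the comparison with the background is not independent. Of all calls in this comparison 50.3% were lower, and 35.8% with total-count scaling in place of TMM. The median log2 fold change of the 10 genes was -0.44, against 0.01 over all genes tested. The libraries of the 2 groups did not overlap for any of the 10 genes, 8 lower and 2 higher in the KO, and neither did they for 76.6% of all genes, 37.6% lower and 39.1% higher.

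Junb, whose protein pairs with FOS proteins and in many settings restrains the growth-promoting activity of JUN, fell the most in fold change. It had 373.1 and 360.5 normalised CPM in the KO libraries, against 1179.5 and 1023.2 in the wild-type libraries. Both KO libraries stood far below both wild-type libraries, and the fitted level was lower by a factor of about 3 (log2 fold change -1.59, SE 0.11, edgeR adjusted p = 1.9e-06). Only 4.06% of the genes tested had a lower fold change. The fall passed in all the other fits run, including those that left out 1 library and the test against a 1.5-fold change, with log2 fold changes of -1.68 to -1.46. Its paralogs went the other way. Jun, the founding AP-1 subunit, had 62.6 and 70.5 normalised CPM in the KO libraries, against 55.3 and 47.3 in the wild-type libraries, so the KO pair was higher without overlap (log2 fold change 0.38, SE 0.10, adjusted p = 0.012). Jund, the most steadily expressed family member in many cell types, had 128.5 and 138.6 in the KO libraries and 103.5 and 105.1 in the wild-type libraries, again without overlap (log2 fold change 0.35, SE 0.09, adjusted p = 0.007). Both rises were small, and a few counts of the antisense gene Junos (3 to 8 a library, against 459 to 749 for Jun) could not be assigned by strand. Jun lost its call without KO replicate 2 (adjusted p = 0.108) and without wild-type replicate 2 (0.140), within a range of 0.002 to 1.000 over all settings, and Jund without KO replicate 2 (0.069) and without wild-type replicate 1 (0.063), within 6.7e-04 to 1.000.

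The FOS family genes fell together, by unequal amounts. Fosl2, which encodes FRA2, had 114.9 and 112.1 normalised CPM in the KO libraries, against 247.3 and 212.2 in the wild-type libraries. The groups were well apart, and the difference was 2.02-fold lower (log2 fold change -1.02, SE 0.13, adjusted p = 1.2e-04). Fosl1, which encodes FRA1, a subunit known to be stabilised by ERK signalling, had 77.3 and 73.9 in the KO libraries, against 102.9 and 103.3 in the wild-type libraries. Its replicates lay close together, and its fall was small and clear of their spread (log2 fold change -0.45, SE 0.08, adjusted p = 0.001). Fosb, inducible like Fos, had 2.59 and 1.83 normalised CPM in the KO libraries and 5.94 and 5.76 in the wild-type libraries, with 16 to 59 counts per library (log2 fold change -1.37, SE 0.28, adjusted p = 0.002). Fos itself, the prototype immediate early gene, had 3.09 and 1.83 in the KO libraries and 5.70 and 5.76 in the wild-type libraries. The wild-type pair agreed closely and the KO pair differed 1.69-fold between its replicates (log2 fold change -1.17, SE 0.30, adjusted p = 0.007). Without KO replicate 2, the lower of the pair, Fos did not pass (log2 fold change -0.89, adjusted p = 0.067, within a range of 6.2e-05 to 0.087 over all settings).

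Of the 3 stress- and growth factor-induced members outside the FOS and JUN families, 1, Ier2, was called. Atf3, a stress-induced repressor in this zipper family, had 12.5 and 8.37 normalised CPM in the KO libraries and 13.8 and 14.9 in the wild-type libraries. Egr1, a zinc finger factor induced with Fos by growth factors, had 58.2 and 38.8 in the KO libraries and 64.6 and 59.2 in the wild-type libraries. For both genes KO replicate 1 stood just below wild type and KO replicate 2 well below it, and neither passed, at log2 fold changes of -0.44 for Atf3 (95% interval -0.85 to -0.03, adjusted p = 0.076) and -0.34 for Egr1 (-0.70 to 0.03, adjusted p = 0.119). Without KO replicate 1 both passed, Atf3 at -0.79 (adjusted p = 0.015, within 0.015 to 1.000 over all settings) and Egr1 at -0.68 (adjusted p = 0.010, within 0.010 to 1.000). They also passed without rescue replicate 1 (0.031 and 0.021) and without rescue replicate 2 (0.038 and 0.031). Ier2, a small nuclear protein gene co-induced with Fos and Jun, had 63.9 and 64.3 normalised CPM in the KO libraries and 81.6 and 77.1 in the wild-type libraries. The groups stood apart by a small step (log2 fold change -0.31, SE 0.09, adjusted p = 0.015), and the call was lost without KO replicate 1 (0.077), KO replicate 2 (0.069) or wild-type replicate 1 (0.119), in DESeq2 (0.067) and with total-count scaling (0.127), within 0.003 to 1.000 over all settings.

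**Figure D1:**
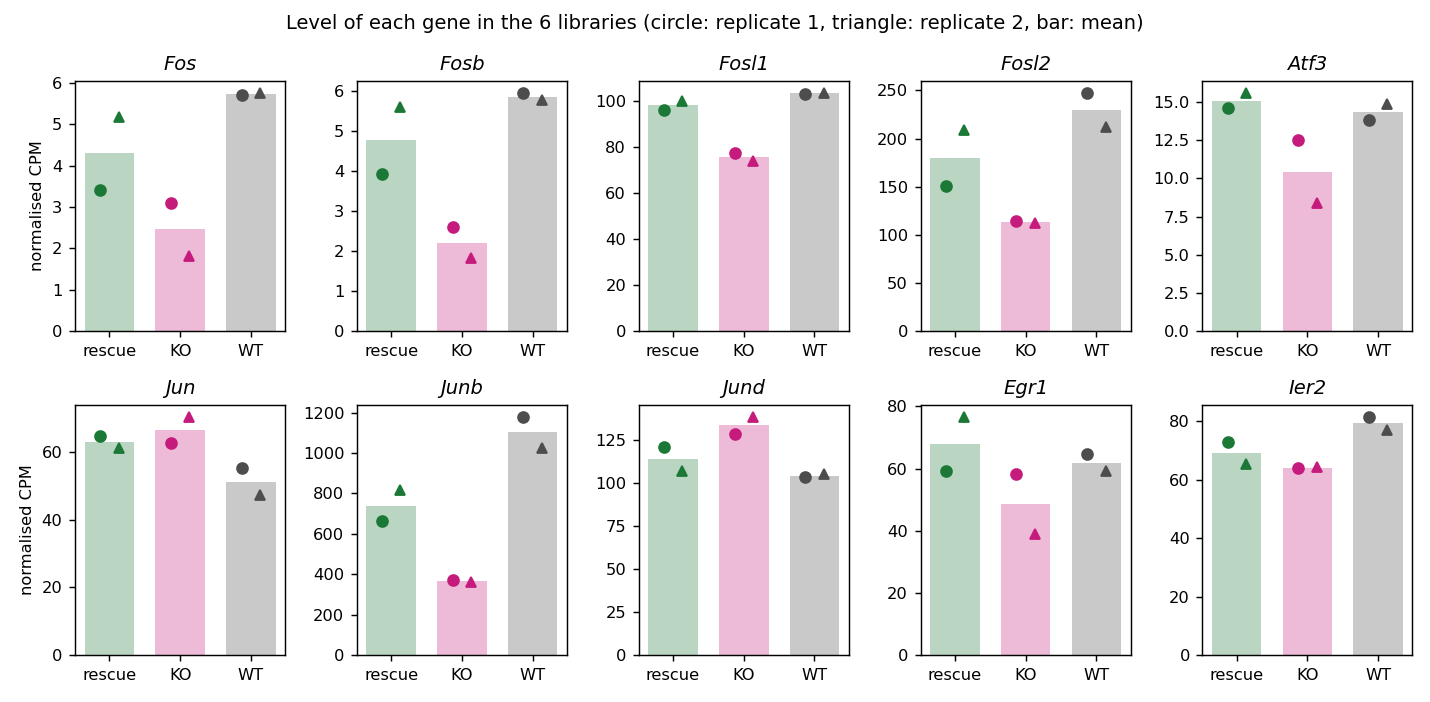
Normalised CPM of each of the 10 genes in the rescue, KO and wild-type (WT) libraries, with circles for replicate 1, triangles for replicate 2 and bars for group means, each panel on its own axis from 0. In Junb the KO libraries, at 373.1 and 360.5, lie under both rescue and both WT libraries, and in Jun and Jund the KO libraries lie above both WT libraries.

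In the KO, Fos, Fosb, Fosl1, Fosl2 and Junb were called lower, and Jun and Jund higher. Proximal promoters are shown because FOS and JUN genes are known to be controlled through such elements. RefSeq start sites on GRCm38.p6 gave a promoter for 7 of the 10 genes, and the 250 bases upstream of each start were searched on both strands. TGAGTCA, the AP-1 element, TGACGTCA, the full cyclic AMP response element, and the CArG box of serum response factor were present in 0 of the 7, against 4.46%, 1.55% and 1.47% of all 32851 promoters in the table. TGACATCA, an AP-1-like element known from the Jun promoter, was in 1 of 7, Jun, at positions -45 to -38 from the start, against 2.93% of all promoters. TGACG, a shorter form contained in the full response element, was in 4 of 7, namely Fos at -129 to -125 and -66 to -62, Fosb at -60 to -56, Junb at -106 to -102 and Atf3 at -7 to -3, against 17.8% of all promoters. Elements farther upstream than 250 bases were not searched, so absence from the window does not show that a gene lacks them. Fosl1, Egr1 and Ier2 were the genes without a promoter. These matches describe letters in the window and are not shown to be bound. The 120 bases upstream are given for 3 genes with a match that were lower in the KO and for Jun, with a match and higher. They read 5′ to 3′ as follows, with TGACG or TGACATCA in capitals.
Fos (chr12:85473770-85473889, plus strand): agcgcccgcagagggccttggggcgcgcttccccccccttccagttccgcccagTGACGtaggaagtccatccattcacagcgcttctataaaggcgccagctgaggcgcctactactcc
Fosb (chr7:19310046-19310165, minus strand): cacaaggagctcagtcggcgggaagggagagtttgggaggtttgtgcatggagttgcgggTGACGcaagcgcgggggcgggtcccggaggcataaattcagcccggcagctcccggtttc
Junb (chr8:84978749-84978868, minus strand): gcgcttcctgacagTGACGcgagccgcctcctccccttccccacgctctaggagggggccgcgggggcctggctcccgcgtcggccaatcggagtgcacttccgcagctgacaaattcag
Jun (chr4:95052223-95052342, minus strand): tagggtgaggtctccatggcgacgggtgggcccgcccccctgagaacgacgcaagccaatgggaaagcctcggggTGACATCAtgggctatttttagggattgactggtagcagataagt
Fos, Fosb and Junb share TGACG within 120 bases of the start, and Jun carries TGACATCA. No match to the motifs searched lay in the windows of Fosl2, called lower in the KO, and Jund, called higher. Atf3 carries TGACG and was not called. Whether these motifs go with the direction of change was not tested.

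**Figure D2:**
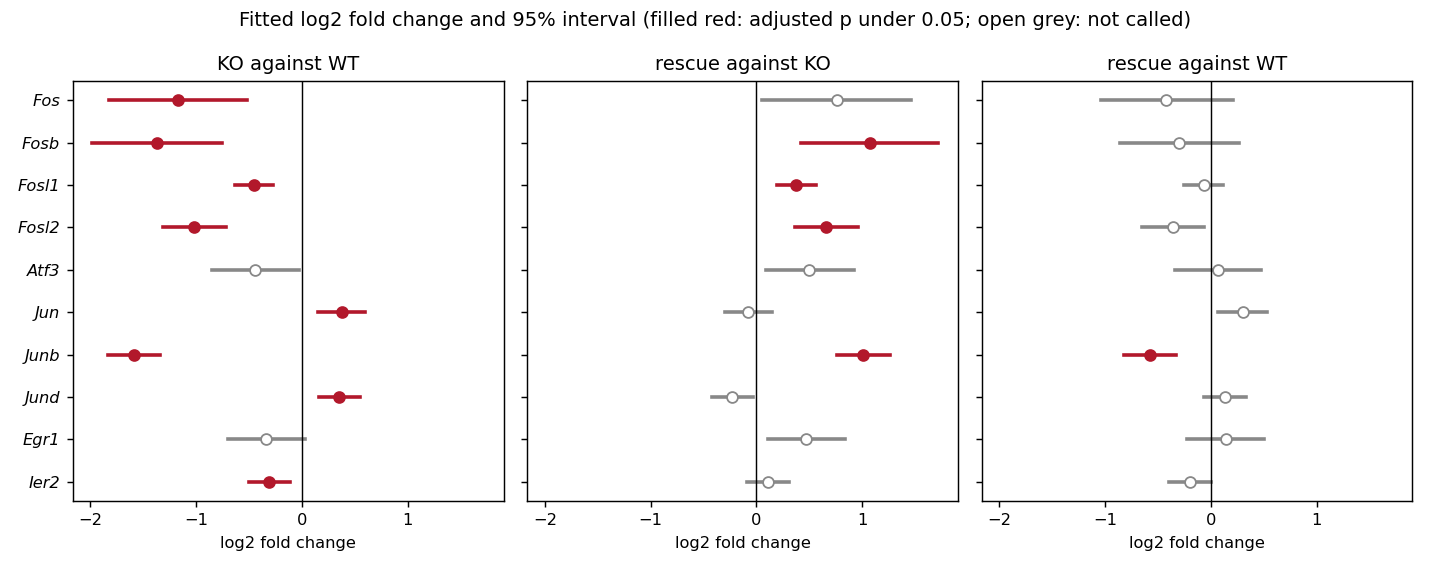
Fitted log2 fold changes (x axis) of the 10 genes for the KO against wild type (WT), the rescue against the KO and the rescue against WT, with 95% intervals as lines and called genes filled in red. Junb is the lowest point at -1.59 in the KO against WT and lies at 1.01 in the rescue against the KO.

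The balance of the family transcripts restates the same levels within each library, in a form that does not depend on how libraries are scaled. Junb made up most of the JUN family sum, so its fall by itself lowers its own share and raises those of Jun and Jund. Junb made up 75.9% and 73.6% of the summed JUN family level per length in the KO libraries, against 92.3% and 91.5% in the wild-type libraries. Jun made up 7.35% and 8.3% in the KO, against 2.5% and 2.44% in wild type, and Jund 16.7% and 18.1%, against 5.18% and 6.01%. The ratio of Junb to the sum of Jun and Jund was 3.15 and 2.79 in the KO libraries and 12 and 10.8 in the wild-type libraries. In the FOS family Fosl1 and Fosl2 supplied nearly all the transcripts, and Fosl1 took 67.7% and 68% in the KO libraries, against 56.6% and 60.1% in the wild-type libraries. The summed JUN family level was 3.99 and 4.18 times the summed FOS family level in the KO libraries and 6.52 and 6.03 times in the wild-type libraries. In each of these measures the KO libraries stood clear of the wild-type libraries, and with 2 libraries a group no test of single ratios was made. The levels of 76.6% of all genes tested also did not overlap between these groups, so the measures add no separate result.

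In the rescue, the FOS family genes and Junb stood above the KO, with Fos not called. Of the 10 genes 4 were called higher than in the KO, Fosb, Fosl1, Fosl2 and Junb, where 8.35% of all genes tested were called higher, and 0 were called lower, where 5.88% were. Of all calls 41.3% were lower, and 58.6% with total-count scaling. Calls in either direction made up 14.2% of all genes. The libraries did not overlap for 9 of the 10 genes, 8 of them higher and 1 lower in the rescue, against 29.3% of all genes higher, 30.1% lower and 59.4% in either direction. The median log2 fold change of the 10 genes was 0.49, against 0.00 over all genes. At an unadjusted p under 0.05, 1 gene, Jund, was lower (log2 fold change -0.23), and DESeq2 called 0 of the 10 lower. Junb had 661.2 and 816.7 normalised CPM in the rescue libraries, against 373.1 and 360.5 in the KO libraries. Both rescue libraries were well above the KO, 2.01-fold in the fit (log2 fold change 1.01, SE 0.11, adjusted p = 0.001), and Junb was the 1 gene of the 10 that passed without any 1 of the 6 libraries. Fosl2 had 150.2 and 208.8 in the rescue libraries and 114.9 and 112.1 in the KO libraries, so the groups did not overlap and the rescue pair differed 1.39-fold between its replicates (log2 fold change 0.66, SE 0.14, adjusted p = 0.011). Fosl1 had 96 and 100 in the rescue libraries and 77.3 and 73.9 in the KO libraries, a small rise clear of the spread (log2 fold change 0.37, SE 0.08, adjusted p = 0.015). Fosb had 3.93 and 5.59 in the rescue libraries and 2.59 and 1.83 in the KO libraries (log2 fold change 1.07, SE 0.30, adjusted p = 0.035).

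Some of these rescue calls were lost when single libraries were left out. Without KO replicate 2, 1 of the 4 genes, Junb, was called, and 203 genes were called over the whole table, against 1756 with all libraries. Without KO replicate 1 the calls were Junb, Atf3 and Egr1. Fosl1 and Fosl2 lost their calls without either KO replicate, though their log2 fold changes stayed near those with all libraries. Without KO replicate 1 and 2 these were 0.41 and 0.34 for Fosl1, against 0.37, and 0.68 and 0.64 for Fosl2, against 0.66. Fosl2 moved more with the rescue libraries, to 0.88 without rescue replicate 1 and 0.40 without rescue replicate 2. Neither gene passed the test against a 1.5-fold change. Fosb lost its call without any 1 library of wild type, of the KO or rescue replicate 2, at adjusted p of 0.069 to 0.253, in DESeq2 (0.146), with only the groups compared (0.069) and with the replicate number as a block (0.059), within 0.003 to 0.655 over all settings.

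The other genes did not pass in the rescue against the KO. Fos had 3.42 and 5.19 normalised CPM in the rescue libraries and 3.09 and 1.83 in the KO libraries, so rescue replicate 1 lay just above KO replicate 1 (log2 fold change 0.76, 95% interval 0.05 to 1.46, adjusted p = 0.137). Fos passed without rescue replicate 1 (log2 fold change 1.03, adjusted p = 0.035, within 0.035 to 1.000). Atf3 had 14.6 and 15.6 in the rescue libraries and 12.5 and 8.37 in the KO libraries (log2 fold change 0.50, interval 0.09 to 0.92, adjusted p = 0.099), and it passed without KO replicate 1 (0.043, within 0.043 to 1.000). Egr1 had 59.3 and 76.7 in the rescue libraries and 58.2 and 38.8 in the KO libraries (log2 fold change 0.47, interval 0.11 to 0.84, adjusted p = 0.082), and it passed without KO replicate 1 (0.023) and without rescue replicate 1 (0.002), within 8.9e-04 to 1.000. For Atf3 and Egr1 the groups did not overlap, with KO replicate 1 close below the rescue. Jun had 64.8 and 61.1 in the rescue libraries and 62.6 and 70.5 in the KO libraries, which overlapped (log2 fold change -0.08, interval -0.30 to 0.15, adjusted p = 0.664). Jund had 121.2 and 106.8 in the rescue libraries and 128.5 and 138.6 in the KO libraries, lower without overlap (log2 fold change -0.23, interval -0.42 to -0.03, adjusted p = 0.115), and it passed without rescue replicate 1 (adjusted p = 0.021, within 0.021 to 1.000). Ier2 had 73.0 and 65.3 in the rescue libraries and 63.9 and 64.3 in the KO libraries, with the second rescue library at the KO level (log2 fold change 0.11, interval -0.09 to 0.31, adjusted p = 0.450).

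Against wild type, 1 of the 10 genes was called in the rescue. Junb was lower, where 12.0% of all genes tested were called lower, and 0 genes were called higher, where 10.2% were, or 22.2% in either direction. The libraries did not overlap for 8 of the 10 genes, 6 lower and 2 higher in the rescue, against 30.4% of all genes lower, 31.2% higher and 61.6% in either direction. In DESeq2 the count called higher was also 0, and at an unadjusted p under 0.05 it was 1, Jun (log2 fold change 0.30). Of all calls 54% were lower, and 41.8% with total-count scaling. Junb had 661.2 and 816.7 normalised CPM in the rescue libraries, against 1179.5 and 1023.2 in the wild-type libraries (log2 fold change -0.58, SE 0.11, adjusted p = 0.003). It did not pass without wild-type replicate 1 (log2 fold change -0.47, adjusted p = 0.063, within 8.7e-10 to 1.000 over all settings). The rescue thus stood between the KO and wild type in Junb, and the comparisons with wild type share its 2 libraries. Fosl2 stood between them too, with 150.2 and 208.8 in the rescue libraries and 247.3 and 212.2 in the wild-type libraries (log2 fold change -0.36, interval -0.65 to -0.07, adjusted p = 0.077). Its second rescue library was close to wild type, and without it Fosl2 was called lower (log2 fold change -0.61, adjusted p = 1.5e-04, within 1.5e-04 to 1.000). Fosl1 had 96 and 100 in the rescue libraries and 102.9 and 103.3 in the wild-type libraries, and its difference had a narrow interval (log2 fold change -0.07, -0.25 to 0.11, adjusted p = 0.571). Fos had the interval -1.04 to 0.21 and Fosb -0.86 to 0.27, so neither interval excludes a remaining deficit.

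Jun stood near its KO level in the rescue, at 64.8 and 61.1 normalised CPM in the rescue libraries against 55.3 and 47.3 in the wild-type libraries. The groups did not overlap and the difference did not pass (log2 fold change 0.30, interval 0.07 to 0.53, adjusted p = 0.066), though it did without rescue replicate 2 (0.038) and with total-count scaling (0.031), within 0.031 to 1.000. Jund, at 121.2 and 106.8 in the rescue libraries against 103.5 and 105.1 in the wild-type libraries, was higher by less (log2 fold change 0.13, interval -0.07 to 0.33, adjusted p = 0.350). Atf3 and Egr1 overlapped between the groups, with log2 fold changes of 0.07 (interval -0.34 to 0.47, adjusted p = 0.836) and 0.14 (interval -0.23 to 0.50, adjusted p = 0.606). Ier2 had a log2 fold change of -0.20 (interval -0.40 to 0.00, adjusted p = 0.150). The share of Junb in the JUN family was 85.2% and 88.7% in the rescue libraries, 75.9% and 73.6% in the KO libraries and 92.3% and 91.5% in the wild-type libraries. Its ratio to the sum of Jun and Jund was 5.75 and 7.89 in the rescue libraries, between those of the other groups. The share of Fosl1 in the FOS family did not settle so, at 66.6% and 59.8% in the rescue libraries. It was 67.7% and 68% in the KO libraries and 56.6% and 60.1% in the wild-type libraries. Rescue replicate 2 was the closer of the pair to wild type in Fos, Fosb, Fosl1, Fosl2, Junb, Jun and Jund, and replicate 1 was the closer to the wild-type mean in Atf3, Egr1 and Ier2. Irak4 was lower in replicate 2 than in replicate 1, at 211.2 against 492.2 normalised CPM.

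**Figure D3:**
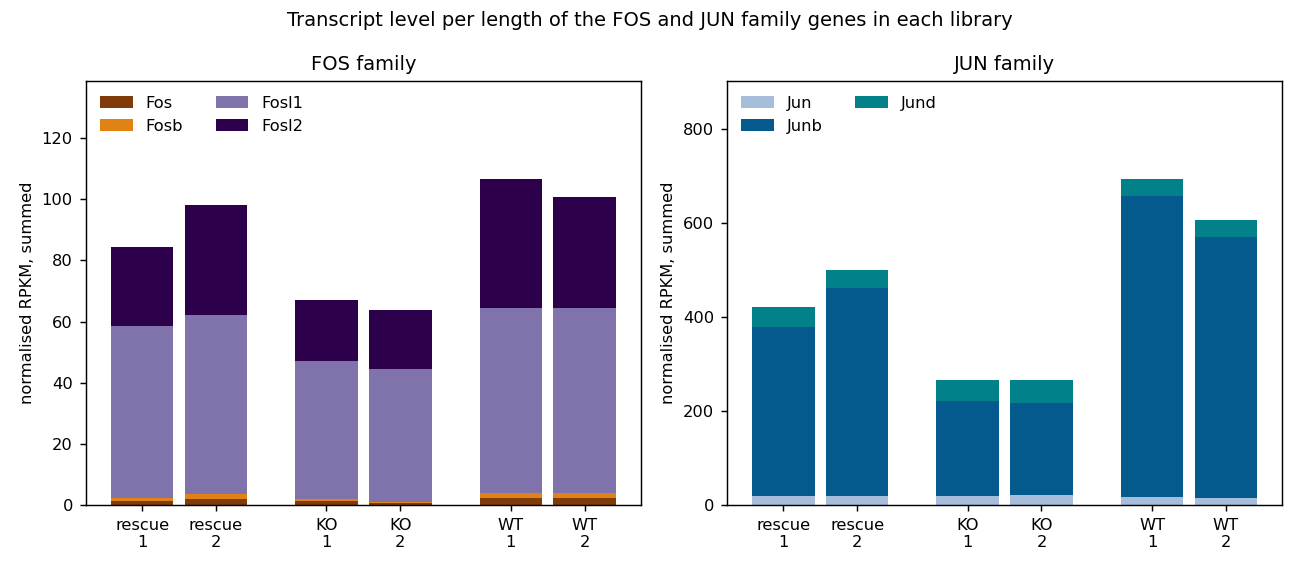
Summed normalised RPKM (y axis, from 0) of the FOS family genes, left, and the JUN family genes, right, in each rescue, KO and wild-type (WT) library, stacked by gene. Junb fills most of the JUN family bars, which reach 267.1 and 266.2 in the KO libraries and 694.4 and 607.4 in the WT libraries, while Fosl1 and Fosl2 fill most of the FOS family bars.

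A list of 30 other immediate early genes shares no gene with the 10. As a group they were lower in the KO, where 23.5% of all genes tested were called lower and 23.2% higher. The list was chosen with earlier results of these data known, so the comparison with that background is not independent. Of 28 tested, 25 were called lower and 0 higher than in wild type, with a median log2 fold change of -0.76, and DESeq2 and all the leave-one-out fits gave 0 higher too. Ier3, a stress-response gene, had 181.2 and 142.9 normalised CPM in the KO libraries and 962.0 and 891.7 in the wild-type libraries (log2 fold change -2.51, adjusted p = 1.2e-06). Dusp1, the phosphatase that switches off MAP kinases, had 20.3 and 19.3 in the KO libraries and 92.6 and 87.3 in the wild-type libraries (log2 fold change -2.18, adjusted p = 8.0e-06). Ccn1, a secreted matrix protein gene, had 292.9 and 235.2 in the KO libraries and 705.1 and 667.2 in the wild-type libraries (log2 fold change -1.38, adjusted p = 8.7e-06). At an unadjusted p under 0.05 the count higher was also 0. In the rescue 15 of the 28 were called higher than in the KO and 0 lower (1 at an unadjusted p under 0.05, 0 in DESeq2), with a median of 0.55, and 6 were called higher without KO replicate 2. Over all genes tested, 8.35% were called higher in the rescue than in the KO and 5.88% lower. Against wild type the shares were 12.0% lower and 10.2% higher. Ier3 (log2 fold change 1.38), Dusp1 (1.48) and Ccn1 (0.99) were among the 15 higher than in the KO. Against wild type 10 were called lower in the rescue, 3 and 4 without wild-type replicate 1 and 2, and 0 higher (0 at an unadjusted p and in DESeq2), or 1 higher without rescue replicate 1.

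Genes known to carry AP-1 sites were nearly all lower in the KO, where 23.5% of all genes tested were called lower and 23.2% higher. This list too was chosen with earlier results of these data known, so it gives no independent comparison with that background. Of 13 tested on a list of 14, 12 were called lower and 1 higher, with a median log2 fold change of -0.90, and 10 were lower and 0 higher without wild-type replicate 1 or KO replicate 1. Spp1, the secreted phosphoprotein osteopontin, had 1172.4 and 1385.5 normalised CPM in the KO libraries and 3809.6 and 4260.4 in the wild-type libraries (log2 fold change -1.66, adjusted p = 1.2e-06). Plaur, the urokinase receptor, had 61.2 and 61.4 in the KO libraries and 140.7 and 145.6 in the wild-type libraries (log2 fold change -1.22, adjusted p = 1.9e-06). Mmp10, a matrix metalloproteinase, had 0.17 and 0.46 in the KO libraries and 11 and 8.7 in the wild-type libraries (log2 fold change -5.01, adjusted p = 3.7e-06). These KO levels lie close to the floor of detection, so the size of this fold change is uncertain. Mmp10 had 0.76 and 1.07 in the rescue libraries, not called against the KO (1.60, edgeR adjusted p = 0.124) and lower than wild type (-3.41, edgeR adjusted p = 3.7e-05). Gja1, the gap junction gene, was the 1 that rose (log2 fold change 0.38, adjusted p = 0.007), and it did not pass without wild-type replicate 1 (0.085) or KO replicate 1 (0.062). In the rescue 4 of the 13 were called higher than in the KO and 1 lower, with a median of 0.23, or 2 and 0 without KO replicate 2 and 3 and 0 without rescue replicate 2. Over all genes tested, 8.35% were called higher in the rescue than in the KO and 5.88% lower. Plaur was among the 4 (log2 fold change 0.59, adjusted p = 0.003). Spp1 was not, at 0.09 (adjusted p = 0.616), and it had 1418.4 and 1302.2 normalised CPM in the rescue libraries. Against wild type 6 were called lower in the rescue and 0 higher (0 at an unadjusted p and in DESeq2). Spp1 was among the 6 (-1.57, adjusted p = 2.1e-06). Over all genes tested, 12.0% were called lower in that comparison and 10.2% higher.

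Other factors of the basic leucine zipper family were called in both directions. Whether each of them pairs with JUN or FOS proteins was not examined. Of 17 tested on a list of 21, 10 were called lower and 3 higher in the KO, with a median log2 fold change of -0.25, where 23.5% of all genes were lower and 23.2% higher. Without wild-type replicate 2 the counts were 6 and 1, without KO replicate 1 they were 8 and 1, without KO replicate 2 they were 6 and 2, and with total-count scaling 6 and 3. Atf6, an endoplasmic reticulum stress sensor, had 105.0 and 100.4 normalised CPM in the KO libraries and 170.6 and 168.6 in the wild-type libraries (log2 fold change -0.72, adjusted p = 4.1e-05). Creb5 had 20.1 and 16.3 in the KO libraries and 38 and 34.1 in the wild-type libraries (log2 fold change -0.97, adjusted p = 1.5e-04) and was higher in the rescue than in the KO (0.88, adjusted p = 0.003). Maf went against the majority, with 19.6 and 25 in the KO libraries and 8.07 and 8.31 in the wild-type libraries (log2 fold change 1.43, adjusted p = 3.9e-04). Maf was lower again in the rescue, at 10.8 and 5.73 (log2 fold change -1.41 against the KO, adjusted p = 0.004), a call lost without KO replicate 2 (0.051). The other risers were Atf5 (0.43, adjusted p = 0.005, lost without wild-type replicate 2 or KO replicate 1) and Atf1 (0.26, adjusted p = 0.036, lost without any 1 library of the KO or wild type), and Atf5 overlaps genes on the opposite strand. In the rescue 3 of the 17 were called higher than in the KO and 2 lower, where 8.35% of all genes tested were called higher and 5.88% lower. Against wild type 1 was higher and 4 lower, where 10.2% of all genes tested were called higher and 12.0% lower. The counts of both comparisons changed when single libraries were left out.

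Genes that act upstream on AP-1 showed no common direction. Of 15 MAP kinase and MAP kinase kinase genes tested, on a list of 17, 5 were called higher and 3 lower in the KO, with a median log2 fold change of 0.07, counts near the 23.2% higher and 23.5% lower of all genes. Map2k6, an activator of p38, had 53.5 and 56.4 normalised CPM in the KO libraries and 119.1 and 106.2 in the wild-type libraries (log2 fold change -1.04, adjusted p = 3.0e-05). Map2k1, which encodes the ERK activator MEK1, had 171.3 and 151.6 in the KO libraries and 303.1 and 284.3 in the wild-type libraries (log2 fold change -0.86, adjusted p = 1.9e-04). Mapk12, a p38 family kinase, was higher, with 26.1 and 27.2 in the KO libraries and 14.2 and 15.6 in the wild-type libraries (log2 fold change 0.83, adjusted p = 3.3e-04). Mapk11, another p38 kinase, was lower (-0.49, adjusted p = 0.009), and did not pass without wild-type replicate 2 (0.070) or KO replicate 2 (0.056). In the rescue, 8.35% of all genes tested were called higher than in the KO and 5.88% lower. Of the 15, 1, Map2k1 (0.64, adjusted p = 0.008), was called higher and 2 lower. Map2k1 did not pass without KO replicate 2 (0.098), 3 were higher without rescue replicate 1, and 0 were lower without any 1 library other than rescue replicate 1. Against wild type 2 were higher and 1 lower in the rescue, where 10.2% of all genes tested were called higher and 12.0% lower. The counts changed when single libraries were left out.

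Among 6 tested genes for serum response factor and its cofactors, 2 were called lower and 0 higher, Elk3 (-0.43, adjusted p = 0.001) and Mrtfa (-0.41, adjusted p = 0.007), and Mrtfa did not pass without wild-type replicate 1 (0.092). Mrtfa overlaps Sgsm3 on the opposite strand. Over all genes tested, 23.5% were called lower in the KO and 23.2% higher. The count higher in the list of 6 was 0 at an unadjusted p under 0.05 and in DESeq2. In the rescue 1 of the 6 was called higher than in the KO, where 8.35% of all genes tested were. Against wild type 22.2% of all genes were called in either direction. Elk3 was higher in the rescue than in the KO (0.30, adjusted p = 0.03), a call lost without any 1 library except rescue replicate 1. Against wild type 0 of the 6 were called in the rescue, with 1 higher and 0 lower at an unadjusted p under 0.05 and 0 in DESeq2, and 1 lower without rescue replicate 2.

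Genes that control the turnover of AP-1 mRNA and protein gave 4 called lower and 1 higher of 10 tested, with a median log2 fold change of -0.03, a count near the 46.8% of all genes called in either direction. Zfp36l1, which binds AU-rich elements and shortens mRNA life, had 35.9 and 39.1 normalised CPM in the KO libraries and 93.4 and 94.3 in the wild-type libraries (log2 fold change -1.33, adjusted p = 5.8e-06). Its relative Zfp36, which is also on the immediate early list, was lower by less (-0.47, adjusted p = 0.011), and so was Fbxw7, part of a ubiquitin ligase that acts on JUN (-0.51, adjusted p = 0.005). Khsrp, a decay factor, was higher (0.22, adjusted p = 0.044). Leaving out wild-type replicate 1, wild-type replicate 2, KO replicate 1 or KO replicate 2 left 2, 1, 1 and 3 genes called lower and 0 higher. Zfp36l1 passed in each of these fits. Zfp36 did not pass without either wild-type replicate or KO replicate 1, Fbxw7 not without wild-type replicate 2 or KO replicate 1, and Khsrp in none of the 4. In the rescue 0 of the 10 were called against the KO, where 14.2% of all genes tested were called in either direction. The count higher was 1 at an unadjusted p under 0.05 and 0 in DESeq2. Against wild type 2 were lower in the rescue and 0 higher (1 higher at an unadjusted p, 0 in DESeq2). Over all genes tested, 12.0% were called lower in that comparison and 10.2% higher. The count lower was smaller without any 1 library of the KO or wild type.

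**Figure D4:**
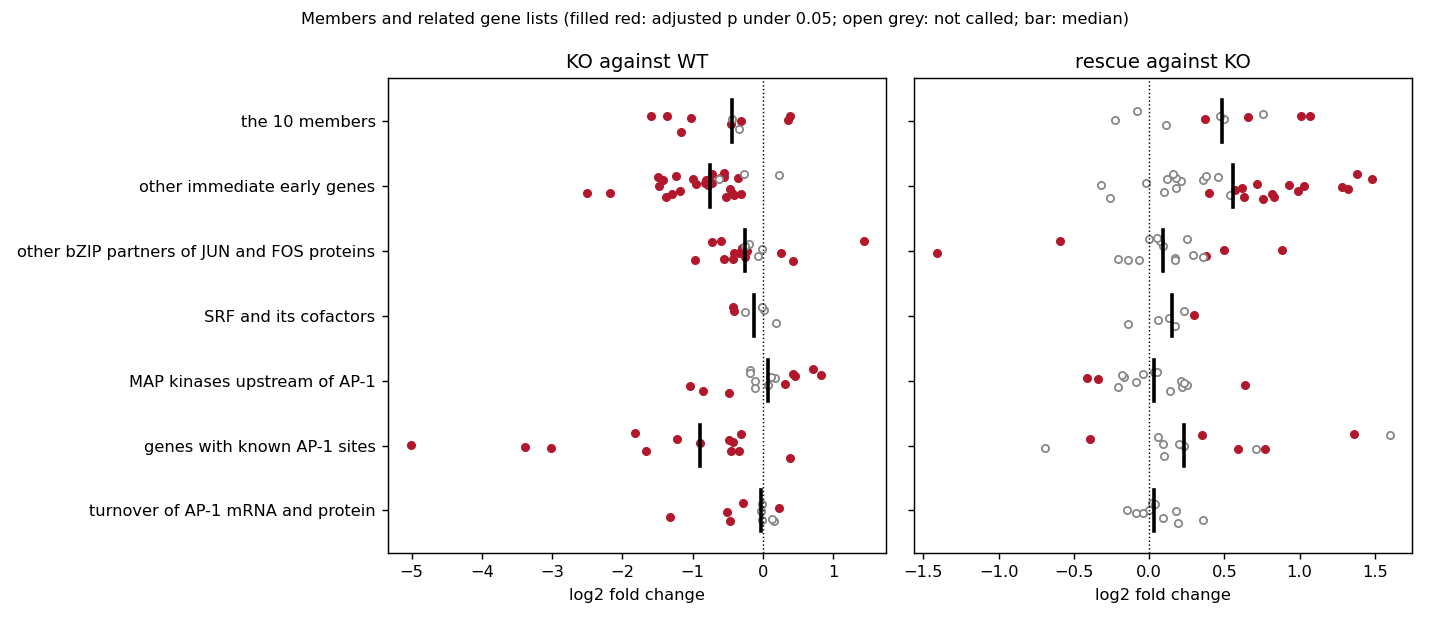
Log2 fold changes (x axis) of the 10 genes and of the tested members of each related list, for the KO against wild type (WT), left, and the rescue against the KO, right, each panel on its own scale, with called genes filled in red and medians as black bars. In the KO against WT the medians lie at -0.44 for the 10 genes, -0.76 for other immediate early genes and -0.90 for genes with known AP-1 sites.

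The genes whose levels ran most like 2 of the FOS genes were sought among 10206 symbol-bearing genes with a mean of at least 5 CPM, by the root mean square difference of log2 CPM over the 6 libraries after each gene was centred on its mean. Closest to Fos were Chac1 (0.052), Noct (0.075) and Aldh1l2 (0.096). Chac1 had 19.8 and 26.9 normalised CPM in the rescue libraries, 17.7 and 11.1 in the KO libraries and 31.2 and 33.2 in the wild-type libraries. Its order of libraries within the KO and rescue pairs is that of Fos, which follows from its choice as the closest gene. The Fos profile itself rests on 16 to 59 counts per library. Closest to Fosl1 were Qk (0.021), Tom1l1 (0.028) and Dcun1d3 (0.029). Qk had 258.3 and 271.7 in the rescue libraries, 211.9 and 201.7 in the KO libraries and 289.8 and 286.7 in the wild-type libraries.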

How the data were processed

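Poly(A) RNA from KP2 cells was sequenced in 6 libraries. Reads were handled with bcl2fastq, STAR 2.0.4b and Subread featureCounts 1.45 on GRCm38, per the submitters' processing notes. Which strand setting and annotation were used for counting is not given in the sources used here. The authors deposited raw counts, CPM and RPKM for 41388 genes, and symbols from GENCODE M21 were matched to 40254 identifiers. The deposited CPM and RPKM values could be recomputed from the deposited counts and gene lengths to within 4.7e-11. Tests used counts: edgeR 4.0.16 in R 4.3.3, TMM scaling, filterByExpr (minimum count 10, minimum total 15), 1 mean per group over all 6 libraries, 3 residual degrees of freedom, the quasi-likelihood test and Benjamini-Hochberg adjustment over 12339 genes, called at an adjusted p under 0.05. DESeq2 1.42.0 was an alternative, as were other scalings and filters, a replicate block, a test against a 1.5-fold change and leaving out each library. The scripts were tested on simulated data. Levels are given as normalised CPM or RPKM on TMM-scaled library sizes. The members and lists were chosen with earlier results of these data known. Named list genes were the 3 with the smallest adjusted p in the KO against wild type and any called against the list's majority. Promoter sequences are from RefSeq (GRCm38.p6).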

Additional observations from a re-analysis of the deposited data

How the results depend on the processing

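With 2 libraries a group, calls near the threshold depended on single libraries, and the spread was larger in the rescue (biological coefficient of variation 10.5%) than in the KO (6.08%) or wild type (5.08%); Fos and Fosb were also limited by counts of 16 to 59. Under the test against a 1.5-fold change, 3 of the 10 genes were lower and 0 higher in the KO against wild type, 0 were higher in the rescue against the KO, and 0 were lower in the rescue against wild type. Leaving out 1 library gave 4 to 8 lower and 0 to 2 higher in the KO against wild type, with 1 higher without either wild-type replicate and 0 without KO replicate 2. It gave 1 to 6 higher and 0 to 1 lower in the rescue against the KO, and 0 to 2 lower and 0 to 1 higher in the rescue against wild type. For the rescue against wild type, 2 were lower with no filter on low counts and 2 with crossed replicate numbers as a block, and 1 was higher with total-count scaling, which moved the median log2 fold change of all genes in the KO against wild type to 0.136. Jun in the rescue against the KO turned to 0.00 without KO replicate 2, within -0.16 to 0.00 over the fits that left out 1 library, and Egr1 in the rescue against wild type to -0.06 without rescue replicate 2, within -0.06 to 0.31. The cause was not tested. The stricter filter removed Fos. Samples with the same replicate number did not deviate together (correlations of 0.037 for KO and wild type, -0.153 for rescue and wild type and -0.192 for rescue and KO), so the numbers were not taken to pair samples. With the replicate number as a block, 6 genes were lower and 2 higher in the KO against wild type, 3 were higher in the rescue against the KO and 1 was lower in the rescue against wild type; over all genes the calls were 5203, 1194 and 2157, against 5772, 1756 and 2744 without it. The crossed block, chosen after seeing the data like total-count scaling, gave 6180, 2560 and 3314.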
